A study of Mus musculus with 5375 samples.

Results

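Endothelial cells (ECs) that line the lung capillaries were compared in uninjected mice according to whether a read of Cd74 was found in the cell. Cd74 encodes the invariant chain of major histocompatibility complex (MHC) class II. The 2 groups were chosen by the measured Cd74 value of each cell. A cell was Cd74-positive when its deposited Cd74 value was above 0 and Cd74-negative when the value was 0. This rule placed 386 cells in the positive group and 410 in the negative group, together the 796 capillary cells of day 0 among 2293 capillary cells and 5375 samples in the series. The cells came from 4 wild-type female BALB/c mice in young adulthood, called m1 to m4, which had received no tumor cells and carried no engineered allele. ECs were sorted by flow cytometry as viable CD31+ cells without CD45, LYVE1, PDPN or TER119, a gate set against leukocytes, lymphatic ECs and red cells, and each cell gave its own full-length SMART-Seq2 library without molecular identifiers. The 6 further animals used for comparison (m5, m6, m7, m9, m10 and m11) were mice of the same strain and sex, given 4T1-GFP mouse breast cancer cells through the tail vein and sampled 1.5 or 3.5 days later. Both groups of cells came from the same animals throughout, so the animal was the replicate and each comparison was made within animals.

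Class II molecules are pairs of an alpha and a beta chain that carry peptides to the cell surface for CD4+ T cells. In the mouse, H2-Aa and H2-Ab1 encode the pair I-A, and H2-Ea and H2-Eb1 encode the pair I-E. The invariant chain holds newly made pairs in the secretory pathway and keeps the peptide groove filled until proteases cut it down, after which H2-DM (H2-DMa with H2-DMb1 or H2-DMb2) helps to exchange the remnant for a peptide. Ciita is the coactivator that switches these genes on together, through RFX and NF-Y proteins bound to X and Y boxes in their promoters. Professional antigen-presenting cells hold the most class II, and capillary ECs of the lung can hold it as well. General capillary ECs (gCaps) and aerocytes (aCaps) are the main kinds of lung capillary EC.

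Detection of Cd74 was near an even split in every animal, at 46.4% of cells in m1, 50% in m2, 47.8% in m3 and 50% in m4. These shares describe the rule and were not tested. The amounts behind them spanned a wide range, since positive cells had between 1 and 6968 estimated Cd74 reads, with a median of 35.5. Just inside the limit, 34.2% of the positive cells had under 10 reads (median 2), and the lowest deposited log10 value among positives was 0.35, while every negative cell stood at exactly 0. Depth ran from 3461 to 2468211 estimated reads a cell with a median of 339356, and detected genes from 1007 to 5011 with a median of 2218. A value of 0 at these depths means that no read was found in that well and not that the cell lacked the transcript.

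Cd74 was detected far more widely in gCaps than in aCaps. Of 534 gCaps, 61.2% were positive, with 56.7% in m1, 63.4% in m2, 59.7% in m3 and 65.8% in m4. Of the aCaps, 38 cells (17.6%) were positive, with 20.7%, 15.5%, 19.6% and 13.6% in the same animals, so every aCap share lay under every gCap share. At least 10 Cd74 reads were found in 44.2% of gCaps and 3.24% of aCaps. The median positive gCap held 74 Cd74 reads and the median positive aCap 1. Among 46 cells that met neither class limit, 21 were positive. Over all animals, 52.8% of the cells below the first quartile of detected genes and 38.1% of those above the last were positive. In m4 the order was the other way, with 27.3% and 51.9%, and the median positive cell there had more detected genes than the median negative one (2599 against 2185). It was 48.2% and 48.8% by sort day, which the deposited annotation gives as day 1.5 for m1 and m2 and day 3.5 for m3 and m4.

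**Figure D1:**
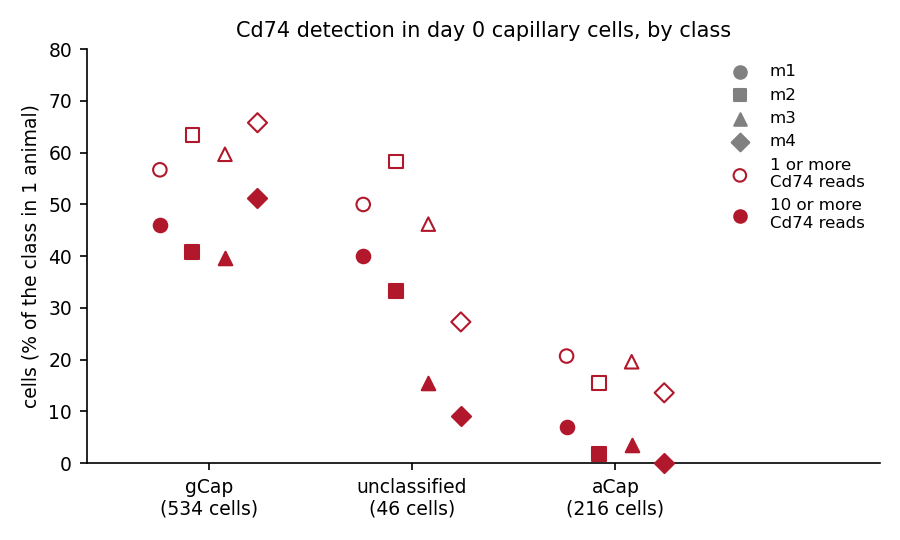
Share of day 0 capillary cells (y axis, % of the class within 1 animal) with at least 1 Cd74 read (open symbols) or at least 10 (filled symbols), by capillary class (x axis), with 1 symbol shape per animal. The open gCap symbols lie between 56.7% and 65.8% and the open aCap symbols between 13.6% and 20.7%.

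Positive and negative cells therefore differed in class and in detected genes before any other gene was looked at. Positive cells were each paired, where possible, with a negative cell of the same animal and the same class whose number of detected genes, Cd74 not counted, was closest on the log10 scale, with no pair more than 0.1 apart. This gave 516 matched cells, with 77 pairs in m1, 64 in m2, 69 in m3 and 48 in m4. They held 414 gCaps, which used up all gCap negatives, 38 pairs of aCaps, which used up all aCap positives, and 13 pairs of unclassified cells. Of all positive cells 66.8% were paired, and of the positive gCaps, which outnumbered the negative ones, 63.3%. The others took no part in the matched comparison. In the matched cells the median number of detected genes was 1822 against 1825 in m1, 2402 against 2449 in m2, 2554 against 2547 in m3 and 2619 against 2623 in m4, positive before negative.

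After matching, class II chain genes were most of the genes called between Cd74-positive and Cd74-negative capillary cells in the mean log10 values. Summed reads, given further below, did not single them out. Each gene's value in a group was the mean over its cells of the deposited log10 value, a read count scaled to housekeeping genes, and differences are given as positive minus negative on that log10 scale. With limma and Benjamini-Hochberg adjustment, 6 of 7004 tested genes (0.0857%) were higher in positive cells at an adjusted p under 0.05 and 0 were lower, with 5.25% of genes at an unadjusted p under 0.05. The median difference over all genes tested was -0.014. The 6 were H2-Ab1, H2-Aa, H2-Eb1 and H2-Ea-ps, which are chains of class II, H2-DMb1, the beta chain of the peptide exchanger H2-DM, and Bcan, which encodes the brain proteoglycan brevican. Genes were tested when seen in at least 10% of matched cells, and H2-Ea-ps, H2-DMb1 and Bcan reached that limit only through the positive cells, where they were more often read. With no such limit 3 of 19973 genes were called, H2-Ab1, H2-Aa and H2-Eb1, while H2-Ea-ps, H2-DMb1 and Bcan had the same differences and missed the threshold (adjusted p = 0.308, 0.497 and 0.912, limma). In the mean log10 values, 44 genes (0.628%) had positive means above all negative means, and the 6 called genes were among them. The sign was positive in all 4 animals for 4.97% of genes and negative in all 4 for 8.61%.

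**Figure D2:**
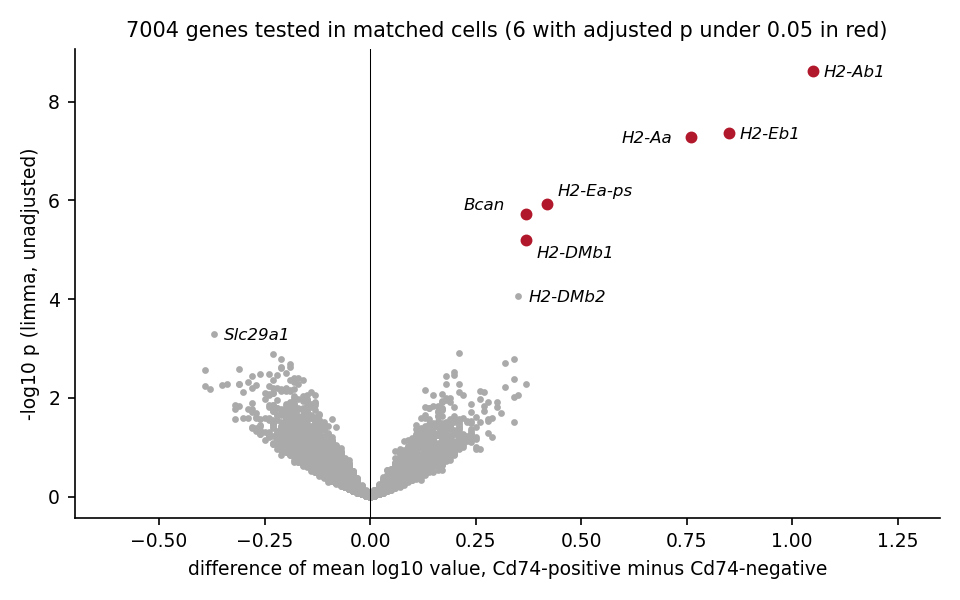
Difference of the mean log10 value between matched Cd74-positive and Cd74-negative cells (x axis, log10 units) against the unadjusted p of the limma fit (y axis, -log10), 1 point per gene for 7004 genes. H2-Ab1, H2-Eb1 and H2-Aa stand apart at 1.05, 0.85 and 0.76, and H2-DMb2 and Slc29a1 are labeled among the gray points that miss the threshold.

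H2-Ab1, the beta chain of I-A at chr17:34257689-34269419 (GRCm38, plus strand), showed the largest difference. A read of it was found in 72.7% of matched positive cells in m1, 64.1% in m2, 81.2% in m3 and 89.6% in m4, against 48.1%, 34.4%, 39.1% and 54.2% of negative cells. All 4 positive shares were above all 4 negative shares, and a sizeable part of the cells without a Cd74 read still had a read of H2-Ab1. The mean log10 value was 2.21 ± 0.22 (SD, n = 4) in positive and 1.15 ± 0.25 in negative cells. The difference was 1.05 with an SE of 0.12 (adjusted p = 1.64e-05, limma).

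The other chains moved the same way in each animal. H2-Aa, the alpha chain of I-A (chr17:34282744-34287823, minus strand), was read in 48.1%, 45.3%, 36.2% and 50% of positive cells in m1 to m4 and in 28.6%, 20.3%, 11.6% and 22.9% of negative cells. Its difference was nearly the same in every animal, at 0.77, 0.79, 0.77 and 0.71 (fitted 0.76, SE 0.10, adjusted p = 1.2e-04, limma). H2-Eb1, the beta chain of I-E (chr17:34305867-34316674, plus strand), was read in 39%, 45.3%, 52.2% and 58.3% of positive cells and in 20.8%, 18.8%, 13% and 27.1% of negative cells. The groups did not overlap for either gene, and the H2-Eb1 difference was largest in m3, at 1.28, against 0.78, 0.67 and 0.68 in m1, m2 and m4 (fitted 0.85, SE 0.11, adjusted p = 1.2e-04, limma). H2-Eb1 overlaps the antisense gene Gm20513 in the annotation, and the sources used here do not state that counting used strand.

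The alpha chain of I-E is annotated in GRCm38, a build of C57BL/6J, as the polymorphic pseudogene H2-Ea-ps (chr17:34341959-34344645, minus strand), because that strain does not make it. BALB/c mice do make I-E. Reads of H2-Ea-ps were found in 22.1%, 23.4%, 13% and 22.9% of positive cells in m1 to m4 and in 1.3%, 3.12%, 4.35% and 6.25% of negative cells. It was therefore rarer than the other chains in either group, with every positive share at least 13% and every negative share at most 6.25%. The difference was 0.42 (SE 0.07, adjusted p = 0.00212, limma), and was 0.53 in the animals of sort day 1.5 and 0.31 in those of sort day 3.5. The call was lost without m1 (adjusted p = 0.0834), without m2 (0.0876) and without the detection limit (0.308, limma), which H2-Ea-ps had met through its positive cells. For H2-Ab1 the same split gave 1.00 and 1.10, for H2-Aa 0.78 and 0.74, and for H2-Eb1 0.73 and 0.98. H2-Eb2, a second beta chain gene beside H2-Eb1, had too few reads to be tested, and H2-Ea was not in the tables.

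**Figure D3:**
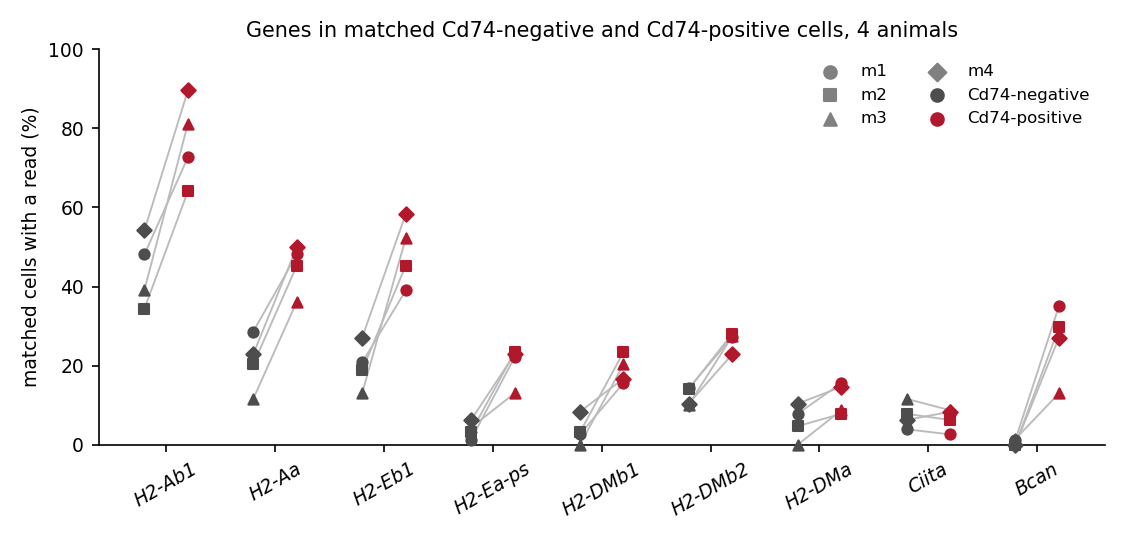
Share of matched cells with a read of each gene (y axis, %) in Cd74-negative (gray, left of each pair) and Cd74-positive cells (red, right), with 1 symbol shape and 1 connecting line per animal. Lines rise in all 4 animals for the class II chains, H2-DMb1, H2-DMb2 and Bcan, and for Ciita the groups overlap, with means of 6.47% in positive and 7.39% in negative cells.

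Chains were found together in the same cell more often in the positive group. Of H2-Ab1, H2-Aa, H2-Eb1 and H2-Ea-ps, at least 2 were read in 58.4%, 50%, 59.4% and 77.1% of positive cells in m1 to m4, against 23.4%, 21.9%, 15.9% and 29.2% of negative cells. None of the 4 was read in 15.6%, 18.8%, 8.7% and 4.17% of positive cells and in 29.9%, 51.6%, 50.7% and 31.2% of negative cells. All 4 were read in 10.9% of positive cells and in 0 of the negative cells, where counting error allows a share of up to 1.16%. These counts restate the genes tested above by cell and were not tested again.

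The promoters of the class II genes are shown for the genes that differed or came close to it, since X and Y boxes are the shared landmarks of this family. Each line gives the 150 bases before the RefSeq gene start (GRCm38.p6), 5′ to 3′ on the gene's strand, with letters of a Y box (CCAAT or ATTGG) or of an X box in capitals. The X box was searched as AAC, any base, then GATGATG on either strand. These letters were chosen after the promoters had been read, and the 2 motifs do not overlap in the lines shown.
H2-Aa, chr17:34287824-34287973, minus strand: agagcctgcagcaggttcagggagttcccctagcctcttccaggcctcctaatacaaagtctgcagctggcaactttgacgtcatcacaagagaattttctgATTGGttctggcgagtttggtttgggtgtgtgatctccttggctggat
H2-Eb1, chr17:34305717-34305866, plus strand: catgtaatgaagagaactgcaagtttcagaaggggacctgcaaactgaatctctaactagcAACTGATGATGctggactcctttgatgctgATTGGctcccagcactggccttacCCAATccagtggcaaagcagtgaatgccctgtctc
H2-DMb1, chr17:34153041-34153190, plus strand: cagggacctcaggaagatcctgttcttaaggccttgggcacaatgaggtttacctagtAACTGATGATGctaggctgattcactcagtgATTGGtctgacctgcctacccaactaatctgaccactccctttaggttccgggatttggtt
H2-DMb2, chr17:34145099-34145248, plus strand: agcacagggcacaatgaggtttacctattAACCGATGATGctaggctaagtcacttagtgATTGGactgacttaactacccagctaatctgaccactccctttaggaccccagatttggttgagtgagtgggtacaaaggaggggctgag

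In H2-Eb1 the X box lies 89 to 79 bases before the start and is followed by a Y box at 59 to 55, found as ATTGG, and another at 35 to 31, found as CCAAT. In H2-DMb1 the X box lies at 92 to 82 and the Y box at 61 to 57, and in H2-DMb2 the Y box lies at 90 to 86 with the X box upstream of it. In H2-Aa only a Y box matched, at 48 to 44. Over the 250 bases before the start of 32851 promoters in the table, a Y box was found in 33.8% and the X box letters in 16 promoters (0.0487%) of 14 genes, 3 of which were H2-Eb1, H2-DMb1 and H2-DMb2. The RefSeq starts of H2-DMb1 and H2-DMb2 lie inside the gene spans of the annotation used for positions. A match describes these letters only. H2-Ab1, H2-Ea and H2-Ea-ps had no entry in the promoter table.

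Among genes that load peptide or process the invariant chain, H2-DMb1 was called, with a call that depended on the fit, and the proteases did not pass the test. H2-DMb1 (chr17:34153072-34160230) was read in 15.6%, 23.4%, 20.3% and 16.7% of positive cells in m1 to m4 and in 2.6%, 3.12%, 0.0% and 8.33% of negative cells. Its difference was 0.37 (SE 0.07, adjusted p = 0.00732, limma). The call was lost without m1, m2 or m3 (adjusted p = 0.0908, 0.199 and 0.469), without the detection limit (0.497), which it had met through its positive cells, and without cells that had a defining immune read (0.233, limma). With pairs matched on total counts and class, H2-DMb1 fell under the detection limit and was not tested, and limma called the other 5 genes of 7088 (0.0705%). H2-DMb2 (chr17:34143307-34151555) was read in 27.3%, 28.1%, 27.5% and 22.9% against 14.3%, 14.1%, 10.1% and 10.4%, without overlap, and its difference of 0.35 (SE 0.08) missed the threshold (adjusted p = 0.0852, limma). The H2-DMb1 and H2-DMb2 transcripts share 517 stretches of 31 bases, of 1648 and 1741 distinct ones, so reads could be split between them and each gene's value is uncertain to that extent.

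H2-DMa, the alpha chain that both beta chains need, was seen in under 10% of matched cells and so was not in that test. Its shares were 15.6%, 7.81%, 8.7% and 14.6% in positive and 7.79%, 4.69%, 0.0% and 10.4% in negative cells, and these overlapped. In the summed reads its log2 fold change was 3.41 (SE 2.36, unadjusted p = 0.189, adjusted p = 1.0, edgeR). H2-DMb1 was the 1 called gene of 8 tested loading and processing genes (0.0857% of all tested genes were called). Since it met the detection limit through its positive cells, nothing is read from that count. The list's median difference was -0.011. Ctsl, a lysosomal protease able to cut the invariant chain, was read in 38.7% ± 4.89 (SD, n = 4) of positive and 41.1% ± 5.01 of negative cells (difference -0.04, SE 0.11). Ctsb, Lgmn, Ifi30, Sppl2a and March8 had differences between -0.04 and 0.06. Ctss, the main invariant chain protease of B cells and dendritic cells, was read in under 1% of positive and in 0 of the negative cells.

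None of 5 tested class II transcription factors was called, which at 0.0857% over all tested genes is the background for a list of this size. Nfyb, a subunit of the Y box factor NF-Y, came nearest, with 13%, 12.5%, 20.3% and 22.9% of positive and 5.19%, 1.56%, 11.6% and 8.33% of negative cells (difference 0.21, SE 0.06, unadjusted p = 0.00126, adjusted p = 0.822, limma). Nfyb too met the detection limit through its positive cells, where it was more often read, so nothing is read from this p. Rfxank, Creb1 and Irf1 had differences between -0.04 and 0.05. Ciita was read in few cells of either group. Its shares were 2.6%, 6.25%, 8.7% and 8.33% in positive cells and 3.9%, 7.81%, 11.6% and 6.25% in negative cells, which overlapped. It was too rare for the limma fit, and in the summed reads its log2 fold change was -2.93 (SE 1.52, unadjusted p = 0.0914, adjusted p = 1.0, edgeR).

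Bcan (chr3:87987531-88000230, minus strand) was the one called gene outside antigen presentation, and its counting is uncertain. It was read in 35.1%, 29.7%, 13% and 27.1% of positive cells in m1 to m4 and in 1.3%, 0.0%, 1.45% and 0.0% of negative cells (difference 0.37, SE 0.06, adjusted p = 0.00265, limma). It met the detection limit through its positive cells, and the call was lost without that limit (adjusted p = 0.912) and without m1, m2 or m4 (0.0834, 0.11 and 0.0672, limma). The difference was 0.54 on sort day 1.5 and 0.20 on sort day 3.5. Of the 100 day 0 capillary cells with a Bcan read, 96 were Cd74-positive and 81 had 100 or more Cd74 reads, and no cell held more than 71 Bcan reads. In cells with 10 or more Cd74 reads there were between 0.363 and 0.744 Bcan reads per 100 Cd74 reads. In cells with 1 to 9 Cd74 reads the ratio was 21.7 over all cells and 0.682 in gCaps. A Bcan transcript shares 4 stretches of 31 bases with a Cd74 transcript. In all, 59 genes share at least 1 such stretch with Cd74, of which 18 were tested and Bcan was the only one called. The part of shared sequence in the Bcan counts was not tested.

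Taken over all day 0 cells without matching, the share with a read of each of the 4 class II chains was higher at each step of Cd74 reads. The widest step there lay between no Cd74 read and 1 to 9 reads. Over all 796 day 0 cells, H2-Ab1 was read in 34.4% of cells without Cd74, 65.2% of those with 1 to 9 Cd74 reads, 79.4% with 10 to 99, 82.8% with 100 or more but under 500, and 84.7% with 500 or more. H2-Aa went through 17.1%, 35.6%, 44.1%, 54.8% and 57.6% over the same steps, and H2-Eb1 through 16.1%, 37.9%, 50%, 51.6% and 66.1%. H2-Ea-ps went in steps from 3.17% to 32.2%, whereas H2-DMb1 went from 2.44% to 14.4% and then stayed between 18.3% and 22.5%. Bcan followed another course, at 0.976%, 3.03%, 10.8%, 37.6% and 78%, staying low until 100 Cd74 reads were present. Ciita showed no order, with 5.61%, 3.03%, 8.82%, 11.8% and 1.69%. The steps held between 59 and 410 cells pooled over animals, and gCaps made up 50.5%, 68.9%, 90.2%, 92.5% and 98.3% of them. Within gCaps alone, H2-Ab1 was read in 48.3%, 71.4%, 80.4%, 84.9% and 84.5%. These shares are a description.

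**Figure D4:**
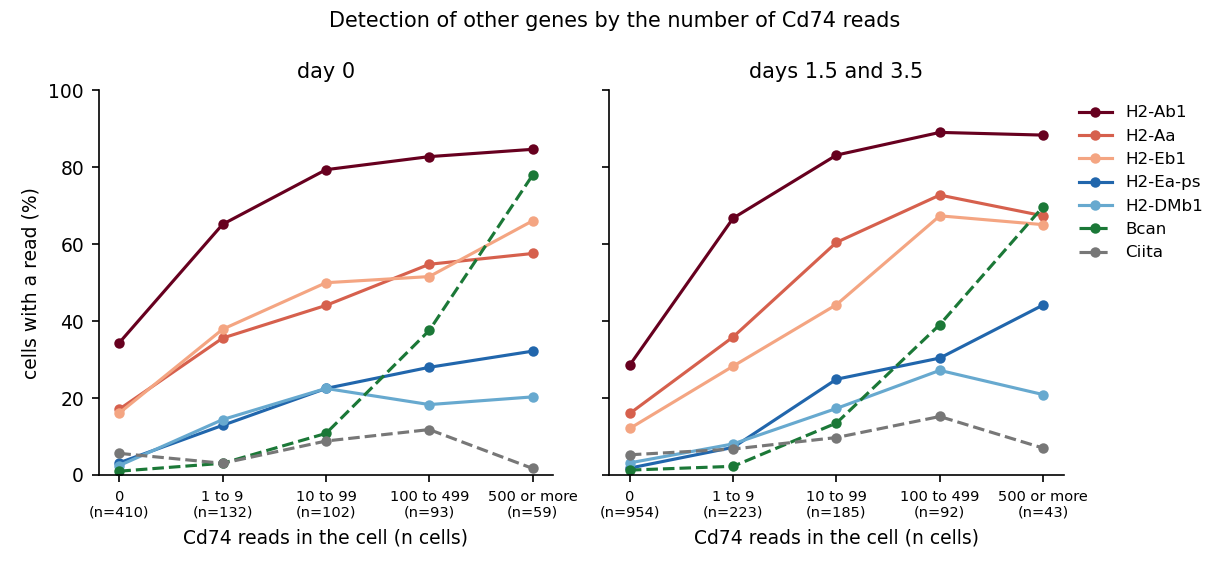
Share of capillary cells with a read of each gene (y axis, %) by the number of Cd74 reads in the cell (x axis, 5 steps with the number of cells), for day 0 (left) and days 1.5 and 3.5 (right). On day 0 H2-Ab1 goes from 34.4% to 84.7%, and Bcan stays at 10.8% or less up to 99 Cd74 reads and reaches 78% at 500 or more.

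Cells near the limit were set against negatives on their own, and cells near the limit were left out, to see how far the result rests on them. With positive cells under 10 Cd74 reads left out, 7 genes were called, the earlier 6 and H2-DMb2 (0.45, SE 0.09, adjusted p = 0.0196, limma), and the H2-Ab1 difference was 1.33. With only those low positive cells, 0 of 6579 genes were called by limma, with 5.12% at an unadjusted p under 0.05. There the differences were 0.54 (SE 0.17) for H2-Ab1, 0.38 (SE 0.14) for H2-Aa and 0.51 (SE 0.15) for H2-Eb1, with unadjusted p of 0.0034, 0.0101 and 0.00204 (limma; adjusted 0.818, 0.895 and 0.744).

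No gene of the other antigen presentation and interferon lists was called, where 0.0857% of all tested genes were called, so that counts of 0 in lists of this size lie at the background. None of 19 tested genes of class I presentation was called, with a median difference of 0.011 and differences from -0.09 to 0.20, and B2m, the class I light chain, stood at 4.29 ± 0.13 (SD, n = 4) and 4.25 ± 0.13 in mean log10 value. Within that list, Calr (0.20, SE 0.12) and H2-D1 (-0.09, SE 0.05) had the smallest p. None of 5 immunoproteasome genes was called, with Psme2 at -0.22 (SE 0.12) and Psmb9 at 0.20 (SE 0.12). None of 19 interferon gamma signaling genes and targets was called (median -0.015), with the GTPases Tgtp2 at -0.20 (SE 0.10) and Tgtp1 at -0.10 (SE 0.08). Of 11 type I interferon targets 0 were called, with Ifitm3 at 0.14 (SE 0.06) and Stat2 at -0.18 (SE 0.11).

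Counts for signals to T cells and adhesion genes were also 0, at the same background of 0.0857%. For co-stimulation this was 0 of 5 tested genes, with Cd200 at 0.17 (SE 0.08) and Cd40 at -0.07 (SE 0.06), and for leukocyte adhesion 0 of 8, with Icam2 at -0.18 (SE 0.09) and Pecam1 at 0.13 (SE 0.08). For the ligand and receptor partners of surface CD74 it was 0 of 3, with Mif, its ligand, at 0.06 (SE 0.10) and Cxcr2 at -0.06 (SE 0.13). An unadjusted p under 0.05 was reached by 1 gene over these 3 lists. The chemokine gene Cxcl12 was read in 55.8%, 68.8%, 68.1% and 75% of positive and 42.9%, 43.8%, 50.7% and 52.1% of negative cells in m1 to m4, and its difference of 0.37 (SE 0.12, adjusted p = 0.822, limma) missed the threshold.

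For vessel identity, clock, stress and RNA quality lists the counts were 0 as well, against 0.0857% over all tested genes. Further gCap genes were called in 0 of 7 (Adgrl3 -0.34, SE 0.11) and further aCap genes in 0 of 8 (Kdr -0.24, SE 0.12, Nrp1 -0.18, SE 0.12), with 7 of these 8 aCap differences below 0, where 56.9% of all tested genes were below 0. Vein genes were called in 0 of 5 (Slc6a2 -0.09, SE 0.05, Prss23 -0.07, SE 0.08), artery genes in 0 of 5 (Hey1 -0.11, SE 0.10, Efnb2 -0.06, SE 0.12) and pan-endothelial genes in 0 of 15 (Erg 0.20, SE 0.09). Clock genes were called in 0 of 7 (Tef 0.21, SE 0.07, Nr1d1 0.14, SE 0.08) and dissociation and heat shock genes in 0 of 17 (Hspb1 -0.38, SE 0.13, Fosb -0.20, SE 0.08). Of the dissociation and heat shock genes, 14 of 17 had a difference below 0, and 3 of 17 had an unadjusted p under 0.05, against 5.25% of all genes. Their median was -0.057 against -0.014 over all genes tested. Mitochondrial and nuclear RNA quality genes were called in 0 of 13 (mt-Co3 0.20, SE 0.08, mt-Co1 -0.21, SE 0.09), and the study's housekeeping panel in 0 of 6 (Gapdh -0.15, SE 0.11, Tubb5 0.10, SE 0.12).

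In the main fits on matched cells, neither limma nor edgeR called a gene lower in positive cells, whereas DESeq2 called 320 (2.57%) lower. Nearest in limma was Slc29a1, the nucleoside transporter ENT1, read in 18.2%, 21.9%, 23.2% and 27.1% of positive and 26%, 39.1%, 42% and 33.3% of negative cells in m1 to m4. Its difference of -0.37 (SE 0.09) missed the threshold (adjusted p = 0.439, limma), and on days 1.5 and 3.5 it was 0.23 (SE 0.12), in the other direction. Gm48407 (-0.23), Gm48443 (-0.21), Ccdc34 (-0.19) and Eef1akmt1 (-0.21), which follow by p, had adjusted p of 0.822 each (limma). They met the detection limit through their negative cells, where they were more often read, so nothing is read from their p. Over all 7004 genes, 1.51% had positive means below all negative means.

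Summed reads gave the same directions for these class II genes, and edgeR called none of them. When the estimated reads of the matched cells were added up in each animal and group and tested with edgeR, 0 of 12452 genes (0.0%) were called in either direction, with 452 (3.63%) under an unadjusted p of 0.05, whereas DESeq2 called 601 genes. In simulated data with the fitted spread, edgeR called 1.49% of 4-fold and 10.6% of 8-fold changes. A count of 0 in this fit therefore does not mean that no gene differed. The log2 fold changes were 1.76 (SE 0.41) for H2-Ab1, 1.62 (SE 0.66) for H2-Aa, 2.66 (SE 0.76) for H2-Eb1, 6.75 (SE 1.77) for H2-Ea-ps, 4.42 (SE 1.66) for H2-DMb1 and 6.17 (SE 2.42) for Bcan, each with an adjusted p of 1.0 (edgeR). On the same sums DESeq2 called H2-Ea-ps (adjusted p = 5.96e-06), H2-DMb2 (0.000645), Bcan (0.00488) and H2-DMb1 (0.0147), and did not call H2-Eb1 (0.0559), H2-Ab1 (0.173) or H2-Aa (0.359). The low-value filter of both fits can be met by the sums of a single group. H2-Ea-ps, Bcan and H2-DMb1 met it through their positive sums, so nothing is read from their calls. The folds of the rarer genes moved with the method. As mean CPM over cells, log2(mean CPM + 1), they were 4.62 for H2-Ea-ps, 2.75 for H2-DMb1 and 1.71 for Bcan. For Bcan the fold was 2.84 without the replicate block and from 4.69 to 8.05 with each animal left out, the highest without m3, and its negative sums were at 0.0 CPM in m2 and m4. Scaled to a common library total as CPM, H2-Ab1 stood at log2 levels of 9.85, 9.80, 10.05 and 9.34 in the positive sums of m1 to m4 and 7.99, 6.81, 8.54 and 8.81 in the negative sums. In H2-Aa the sums of m4 went the other way, with a log2 CPM of 7.93 in positive and 8.30 in negative cells, while the share of cells with a read was 50% against 22.9%.

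The 601 genes that DESeq2 called were 4.83% of those tested. Of them, 320 (2.57% of those tested) were lower and the others (2.26%) higher. In 29.1% of the 601, over 50% of all reads in the matched cells lay in a single cell, and the top cell held a median of 39.1% of a called gene's reads against 21.9% over all tested genes. Smallest by p in edgeR was Fabp4, a fatty acid carrier of capillary ECs (log2 fold change -9.47, SE 0.68, adjusted p = 0.0544), which DESeq2 called (-8.58, adjusted p = 9.54e-08). Its sums ran from 0.0 to 1.06 CPM in positive and from 0.0 to 1060 CPM in negative cells, with m4 at 0.0 in both, yet 7.59% of positive and 5.11% of negative cells had a read, so few cells carried the difference. Among the next in each direction, and also short of the threshold in edgeR, were Tab1, Mpp1 and Mx2 among lower genes and Gm2862, Pdlim7, Plod2, Tbc1d15 and Erlin1 among higher genes (adjusted p = 1.0 each, edgeR). Tab1, Mpp1, Plod2 and Erlin1 were among the genes that DESeq2 called.

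The class difference between the groups was large when it was not matched away. Over all 386 and 410 cells, 4.64% of 6986 genes were called by the same limma fit, 48 (0.687%) higher and the others (3.95%) lower in positive cells. All 12 tested aCap genes of the study's list were lower and 9 of 13 gCap genes higher. The aCap genes Emp2 (-1.20, SE 0.12), Ednrb (-0.97, SE 0.10) and Car4 (-0.83, SE 0.11) fell, and the gCap genes Gpihbp1, the capillary anchor of lipoprotein lipase (0.79, SE 0.08), and Plvap, a component of capillary fenestrae and caveolae (0.71, SE 0.11), rose (largest adjusted p of these 5 genes 8.76e-07). Pairing on detected genes without class left 60 of 6876 (0.873%) higher and 2.6% lower, 3.48% in all. With class matched as well, 0 of the 9 aCap and 13 gCap genes then tested were called, and these 5 genes had differences of -0.12, -0.04, -0.03, 0.02 and -0.18. The classes were built from these same lists, so pairing within class fixes this in large part and it is no separate result. The 6 genes called in the matched cells were called in all 3 settings, each of which kept the detection limit that H2-Ea-ps, H2-DMb1 and Bcan met through their positive cells, and without which these 3 missed the threshold.

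The class II chains were read in more Cd74-positive than Cd74-negative gCaps, while in aCaps the genes went in different directions. In the matched gCaps, H2-Ab1 was read in 82.1% of positive and 48.3% of negative cells, H2-Aa in 50.7% and 22.2%, H2-Eb1 in 52.2% and 21.7%, H2-Ea-ps in 24.2% and 3.38%, and Bcan in 30.9% and 0.966%. In the 38 aCap pairs, H2-Ab1 was read in 50% and 21.1%, H2-Aa in 23.7% and 15.8%, H2-Eb1 in 21.1% and 5.26%, H2-Ea-ps in 2.63% and 5.26%, and Bcan in 7.89% and 0.0%. H2-DMb2 was read in 7.89% and 15.8% of these aCaps and H2-DMa in 0.0% and 5.26%, so that they and H2-Ea-ps were seen in fewer positive than negative aCaps. Among 38 pairs each of these shares rests on a few cells, and no direction is read from them. At least 2 of the 4 chains were read in 26.3% of positive and 10.5% of negative aCaps, with the positive share higher in all 4 animals. The share with H2-Ab1 was higher in the positive cells of both classes in all 4 animals, whereas H2-Aa in aCaps stood at 8.33% against 25% in m1 and at 33.3% in both groups of m4. Only m1 and m3 had at least 10 pairs of each class, so the difference between the classes was not tested. Limited to gCaps, the limma fit called 7 of 6921 genes, the 6 and H2-DMb2 (0.42, adjusted p = 0.0382).

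The 6 injected animals had taken no part in the day 0 comparison. Detection of Cd74 there ran from 2.46% of cells in m5 to 52% in m6, with 49.5% in m7, 50.4% in m9, 30.9% in m10 and 31.6% in m11. Matching gave 750 cells, of which m5 supplied 7 pairs. In these animals limma called 2 of 7792 genes (0.0257%), H2-Ab1 (1.14, SE 0.13) and H2-Aa (0.96, SE 0.10), both higher with an adjusted p of 0.00537, and 0 lower, with 4.41% of genes at an unadjusted p under 0.05. By animal, the H2-Ab1 difference was 0.64 in m5, 1.20 in m6, 1.07 in m7, 1.52 in m9, 1.44 in m10 and 0.95 in m11. It was therefore positive in 6 of 6 animals, as was that of H2-Aa.

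H2-Eb1 was also higher in 6 of 6 animals but missed the threshold (0.79, SE 0.12, adjusted p = 0.0741, limma), and H2-Ea-ps was higher in 5 of 6 (0.33, SE 0.07, adjusted p = 0.694, limma). Without m5, 5 genes were called, H2-Ab1, H2-Aa, H2-Eb1, H2-Ea-ps and Wfdc1. On these days too H2-Ea-ps met the detection limit through its positive cells, so nothing is read from its call. H2-DMb1 and Bcan were under the 10% detection limit on these days and not tested there. Bcan was read in 17.9%, 13.4%, 13.4%, 22.4% and 21% of positive cells in m6, m7, m9, m10 and m11 and in 0.0%, 2.44%, 2.44%, 0.0% and 1.61% of negative cells, and in m5 it was at 0.0% in both groups, so its difference was above 0 in 5 of 6 animals. Summed reads gave 0 of 12506 genes by edgeR (0.0%), with 2.57% under an unadjusted p of 0.05, while DESeq2 called 1.71%. For the difference of the contrast between day 0 and the later days, 0 of 7950 genes (0.0%) were called by limma, with 3.07% at an unadjusted p under 0.05. For H2-Ab1 it was -0.08 (SE 0.18), for H2-Aa -0.20 (SE 0.15), for H2-Eb1 0.06 (SE 0.18) and for H2-DMb2 0.24 (SE 0.09, unadjusted p = 0.0212, adjusted p = 0.996), day 0 minus later. In the same fit over both sets of days it was 0.21 for Bcan (SE 0.08, unadjusted p = 0.0249) and 0.17 for H2-DMb1 (SE 0.08, unadjusted p = 0.0443), each with an adjusted p of 0.996 (limma). Both genes entered this fit only through day 0, where their positive cells had carried them over the detection limit. Nothing is therefore read from these p.

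**Figure D5:**
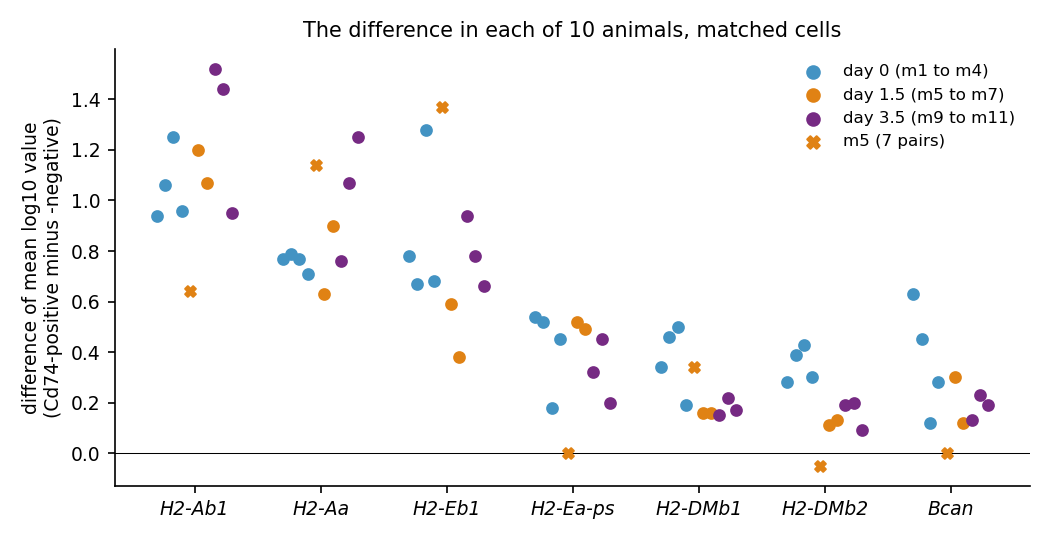
Difference of the mean log10 value between matched Cd74-positive and Cd74-negative cells (y axis, log10 units) in each of 10 animals for 7 genes (x axis), colored by day, with a cross for m5 and its 7 pairs. H2-Ab1 lies between 0.64 and 1.52 in all 10 animals, and the day 0 points of Bcan spread from 0.12 to 0.63.

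Markers of other cells that carry class II were checked in the same cells. Pecam1, the sorted surface marker CD31, was read in 99.6% of positive and 100% of negative cells. Cd79a, Igkc, C1qa and Marco had no read in either group, which allows a share of up to 1.16%. Adgre1, Itgax and Cd3e also stood at 0, but they and Ptprc are among the genes by which the authors had removed cells, so their values were set by that step. Ptprc (CD45) was read in 0 positive and 1 negative cell, Lyz2 in 2 and 3, and Csf1r in 7 and 4. Ms4a1, listed as a B cell marker, was read in 25.2% and 27.5% of cells, with no read of Cd79a beside it. A read of any of 17 defining immune genes, Ms4a1 included, was found in 28.6%, 26.6%, 30.4% and 33.3% of positive and 32.5%, 31.2%, 36.2% and 18.8% of negative cells in m1 to m4. As summed CPM per animal, the 12 B cell genes ranged from 16.1 to 32.3 in positive and 15.6 to 35.6 in negative cells, the 17 macrophage and monocyte genes from 521 to 1340 and 777 to 1070, and the 10 dendritic cell genes, Cst3 included, from 1620 to 2600 and 1810 to 2540. The 6 erythroid genes were read in 44.6% of positive and 41.5% of negative cells, with summed CPM from 56.6 to 8270 in positive cells and from 72.1 upward in negative cells, where the highest sum was well under the highest positive one. The 8 fibroblast genes were read in 15.5% and 13.2%, with 1.96 to 405 and 0.618 to 2.6 CPM. The part of these reads in the results was not tested. With every cell left out that had a read of any of the defining immune genes, 5 genes were called, and the H2-Ab1 difference was 1.03 (adjusted p = 5.79e-05, limma), while H2-DMb1 missed the threshold (0.34, adjusted p = 0.233).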

How the data were processed

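The authors quantified single-end SMART-Seq2 reads with salmon 0.7.2 to GRCm38, per the submitters' processing notes, and deposited raw tables of estimated counts for each lane (35308 genes) and a filtered capillary table of log10 values (21895 genes), scaled to housekeeping genes, after removing cells of low quality or with immune or stromal genes. Animals came from the deposited annotation. The libraries carry no molecular identifiers, so limits on shares of 0 cover counting error only.

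Classes (gCap, aCap) were rebuilt with Seurat 5.3.0 from the study's lists. Cd74 was left out of detected genes, library sizes and tests. Within animal and class, cells were paired 1 to 1 on log10 detected genes (limit 0.1). Each test had the animal as a block, which pairs the groups by design (correlation of the 2 groups' deviations within an animal 0.35, 0.09, 0.16 and 0.22 in m1 to m4). The first was limma 3.58.1 (trend) on mean deposited log10 values, for genes seen in at least 10% of matched cells. The second was edgeR 4.0.16 quasi-likelihood on estimated counts summed per animal and rounded, with TMM and filterByExpr, and DESeq2 1.42.0 as an alternative. Benjamini-Hochberg adjustment ran over all genes tested, with a threshold of 0.05. Scripts were tested on simulated data. Other alternatives were other matchings, class, lane and Cd74 limits, low-value filters, scalings, and leaving out each animal.

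Members and gene lists were chosen with earlier results of these data known. Genes named are the tested class II genes, up to 10 called genes in each direction by p with the same sign in all animals, filled to 5 with those that missed the threshold, and the 2 members with the smallest p of each other list. Further genes (H2-DMa, Ciita, Cxcl12, Emp2, Ednrb, Car4, Gpihbp1, Plvap and immune markers) are given as context. Positions are from the GRCm38 gene annotation and promoters from RefSeq (GRCm38.p6). A few genes that the naming rule or the lists hold are not reported here.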

Additional observations from a re-analysis of the deposited data

Results flagged for a closer look

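Of 25 groups of 4 animals examined for 1 animal far from the others, 2 stood out, and chance gives about 1 in 20. The share of Cd74-positive matched cells with an H2-Ea-ps read was 13% in m3, against 22.1%, 23.4% and 22.9% in m1, m2 and m4. The share of Cd74-positive matched cells with an H2-DMb2 read was 22.9% in m4, against 27.3%, 28.1% and 27.5% in m1, m2 and m3. In both genes the low animal still lay above all 4 shares of Cd74-negative cells.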

How the results depend on the processing

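No result reversed its direction under the alternatives run. H2-Ab1, H2-Aa and H2-Eb1 were called by limma in each of them except the fit with only positive cells under 10 Cd74 reads, which called 0 of 6579 genes by limma (0.0%), while 5.12% had an unadjusted p below 0.05. Against 0.0857% of genes called in the mean log10 values, all day 0 cells without matching gave 4.64%, matching on detected genes only 3.48%, and no filter on low values 0.015% (3 of 19973 genes), where H2-Ea-ps, H2-DMb1 and Bcan missed the threshold (adjusted p = 0.308, 0.497 and 0.912, limma). Leaving out each animal in turn gave from 0.0428% to 0.0714%, the lowest without m1 and without m2, each with 3 genes. H2-Ea-ps and Bcan missed the threshold without m1 (adjusted p = 0.0834 each, limma) and without m2 (0.0876 and 0.11, limma), Bcan also without m4 (0.0672, limma), and H2-DMb1 without m1, m2 or m3 (0.0908, 0.199 and 0.469, limma). With shares of cells in place of log10 values, Cxcl12 was called as well. Without the replicate block the share called was 0.0857%, as with the animal pairing, and for summed reads it was 0.0% in both.

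For summed reads, edgeR called 1 gene, Fabp4, without matching (0.0074%), with matching on detected genes only (0.00751%), without a filter (0.00444%) and with pairs held within a sequencing lane (0.00807%), and DESeq2 called 4.83%. Leaving out each animal in turn gave from 0.0% to 0.00779%, with Fabp4 called without m4. On days 1.5 and 3.5, limma called 0.0642% without m5 and DESeq2 called 1.71%.

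The fits on low positive cells, on lane and without defining immune genes, and the DESeq2 fit and the fits without m5 on the later days, were chosen after seeing the data. Leaving out every cell with a read of any listed immune gene kept 1 pair in m1 and 1 in m2 and gave no value. The cause of the changes was not tested, other than that some fits held fewer animals or more genes. Ciita and H2-DMa were seen in under 10% of matched cells and were tested only in the summed reads.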
